A study of Sus scrofa with 70 samples.

Results

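A segment of pig chromosome 1 running from position 269000000 to 273100000 in Sscrofa11.1, the genome build of the deposited annotation, was examined in the reproductive glands of boars from a pair of Chinese breeds. Its members were all genes that the annotation places wholly inside these bounds, apart from names beginning with LCN, COL or PTGDS, and no gene was left out by name. This gave 117 of 42873 genes and 676 of 150808 transcripts, of which 450 were built from Iso-seq reads and 226 came from Ensembl. The segment had been picked because transcripts of SH3GLB2, FIBCD1, PRRC2B and SURF4 differed between the breeds in the RNA-seq values, so all differences between breeds in RNA-seq given below are descriptions, and the calls among them support nothing further. Of the 117 genes, 106 had values in the table of TPM, the share of a library's reads that a transcript takes after scaling by its length, 85 of these reached 1 TPM in at least 3 of the 30 RNA-seq libraries, 21 stayed below this filter and 11 were not in the table.

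The samples came from boars aged 12 months of the Banna mini-pig inbred line (BMI) and of the Diannan small-ear pig (DSE), with no other treatment. The testis, the epididymis and the 3 accessory glands (the vesicular, prostate and bulbourethral glands) were each sampled in both breeds, with 3 RNA-seq libraries (Illumina short reads) per breed and gland and 1 Iso-seq library (PacBio full-length reads) per breed and gland. The labels do not say whether the same boars gave several glands, or whether the libraries of a group came from separate boars, so the spread between libraries may be partly technical. Each Iso-seq library held between 231413 and 458697 full-length reads. The TPM table holds no read counts, so the counting error of single TPM values was not computed.

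The segment is gene-dense and holds the surfeit cluster, a tight group of unrelated housekeeping genes kept together across vertebrates. SURF4, a member of that cluster, is a cargo receptor that carries secreted proteins from the endoplasmic reticulum to the Golgi, a step on which all secretory glands rely. PRRC2B is an RNA-binding protein linked to the start of translation, SH3GLB2 is an endophilin that binds curved membranes, and FIBCD1 is a cell surface receptor with a fibrinogen-like domain that binds acetylated sugars. Many genes give several transcripts that differ in where exons begin and end, and short reads are shared out among such near-identical transcripts by estimation.

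Certain libraries stood apart from their labels. The RNA-seq library BMI prostate gland replicate 2 held 169570 TPM of the spermadhesin PSP-I, a main product of the vesicular gland, where the other 5 prostate libraries held 1.04 to 9.20 TPM. In the same library MSMB, a main secreted protein of the prostate gland, stood at 88607 TPM, below the 102930 to 178300 TPM of the other 5. The Iso-seq library labelled BMI prostate gland held 4029 reads of PSP-I and 11 of MSMB, against 0 and 123 in the DSE prostate gland and 4309 of PSP-I in the BMI vesicular gland. For the main results that rest on either library, values without it are given too. The 2 bulbourethral gland markers on the list, both mucins, had no match in the table, so that gland was not checked by its own markers. In testis the summed levels of Leydig cell, smooth muscle and leukocyte markers were higher in all DSE than in all BMI libraries, for example 23153 to 61438 against 17754 to 20574 TPM for the 3 Leydig cell markers, and leukocyte markers were also higher in DSE prostate gland. In vesicular gland 3 skeletal muscle markers summed to 4.36 to 17.8 TPM in DSE and 0.214 to 2.65 TPM in BMI, and 3 markers of epididymis epithelium to 0.245 to 0.591 TPM in DSE and 1.43 to 3.60 TPM in BMI. Germ cell markers of the testis summed to 64185 to 82004 TPM in BMI and 22494 to 98697 TPM in DSE testis. Vesicular gland markers reached 5878 TPM in a BMI and 1543 TPM in a DSE epididymis library, from lowest values of 9.83 and 8.64 TPM. The BMI bulbourethral Iso-seq library held 1998 reads of ACTA1, an actin of skeletal muscle, and the DSE one none. The part of these markers in the differences described here was not tested.

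Forms of PRRC2B and SURF4 told apart by a single position kept the breeds apart in all 5 glands. The reference sequences of these positions are shown because each separates a pair of transcript forms. Transcripts of the forms can also differ elsewhere, and the part of each position in the split was not tested. In PRRC2B, a coding exon begins at 271399791 and ends either at 271399996 (206 bases) or at 271400008 (218 bases), and the next exon begins at 271402414. The first sequence covers chr1:271399949-271400028 on the plus strand, and its capitals mark the 12 bases that the long exon has and the short exon lacks. The second covers chr1:272975924-272975952 on the minus strand, the strand of SURF4, and its capitals mark 7 bases of the last exon, beyond the coding sequence, that one form leaves out.
PRRC2B exon end: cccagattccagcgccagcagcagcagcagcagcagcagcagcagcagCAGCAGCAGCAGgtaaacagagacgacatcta
SURF4 last exon: cccactcggaaTGAGGCCcgccttggagc

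The 12 bases of PRRC2B are 4 units of CAG at the end of a run of 15 such units. The long exon is followed by gt and the intron closes with ag, the usual borders of an intron, whereas the short exon is followed by ca, inside the repeat. The transcript with the short exon, PB.2174.143, and the Ensembl transcript with the long exon, ENSSSCT00000006285, both had 32 exons, with coding sequences of 6714 and 6726 bases, so the annotated reading frame differs by 4 codons. Their outer ends also differed, PB.2174.143 running from 271336795 to 271430912 and ENSSSCT00000006285 from 271336818 to 271430916. In SURF4, the gap of 7 bases in PB.2185.12 begins with tg and ends with cc, and apart from it the transcript matches PB.2185.1, with 7 exons in place of 6 and the same coding sequence of 810 bases. Gaps of fewer than 30 bases occurred in 6 of the 450 Iso-seq transcripts of the segment (1.33%) and in 576 of 90085 elsewhere (0.639%). The 6 include the 4 SURF4 transcripts with this gap of 7 bases. Among Ensembl transcripts such gaps occurred in 32 of 226 in the segment (14.2%) and in 4218 of 60047 elsewhere (7.02%).

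PRRC2B was read almost wholly as the short form in BMI and mostly as the long form in DSE. The short form took 94.95% to 100% of the TPM of both forms in the 15 BMI libraries, with a median of 99.5%, and 11.6% to 37.4% in the 15 DSE libraries, with a median of 19.96%. The means were 98.6% ± 1.80 (SD, n = 15) in BMI and 20.5% ± 6.38 (SD, n = 15) in DSE. The libraries of a replicate number may share a boar across glands, so these 15 are not 15 animals. The breeds were apart in each of the 5 glands. Transcripts that show either form held 58.5% to 92.2% of the gene's TPM in BMI and 37.2% to 91.3% in DSE. Leaving out any replicate number of either breed kept the difference (DSE minus BMI) between -80.2 and -76.6 percentage points.

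The TPM of the 2 full transcripts enter these shares and are not a second view of them. In testis, PB.2174.143 stood at 10.2, 9.47 and 7.79 TPM in BMI replicates 1 to 3 and was listed at 0 in all 3 DSE libraries. In prostate gland it stood at 22.0, 21.5 and 17.1 TPM in BMI and again at 0 in DSE, and it was listed at 0 in all 15 DSE libraries. ENSSSCT00000006285 ran the other way, with 0.0718, 0.269 and 1.02 TPM in BMI and 28.3, 23.3 and 33.6 TPM in DSE prostate gland, and it was at most 1.11 TPM in any BMI library and at least 2.92 TPM in any DSE library. The short form still seen in DSE came from a second transcript with the same exon end, PB.2174.144. Summed over its transcripts, PRRC2B overlapped between breeds in 4 glands and was higher in DSE prostate gland, at 50.3, 36.6 and 51.7 against 33.5, 31.5 and 35.5 TPM, a log2 difference of 0.44 (SE 0.201) beside a median of 0.39 over all genes in that gland. In prostate gland 5860 of 19796 genes were higher in all DSE than in all BMI libraries.

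**Figure D1:**
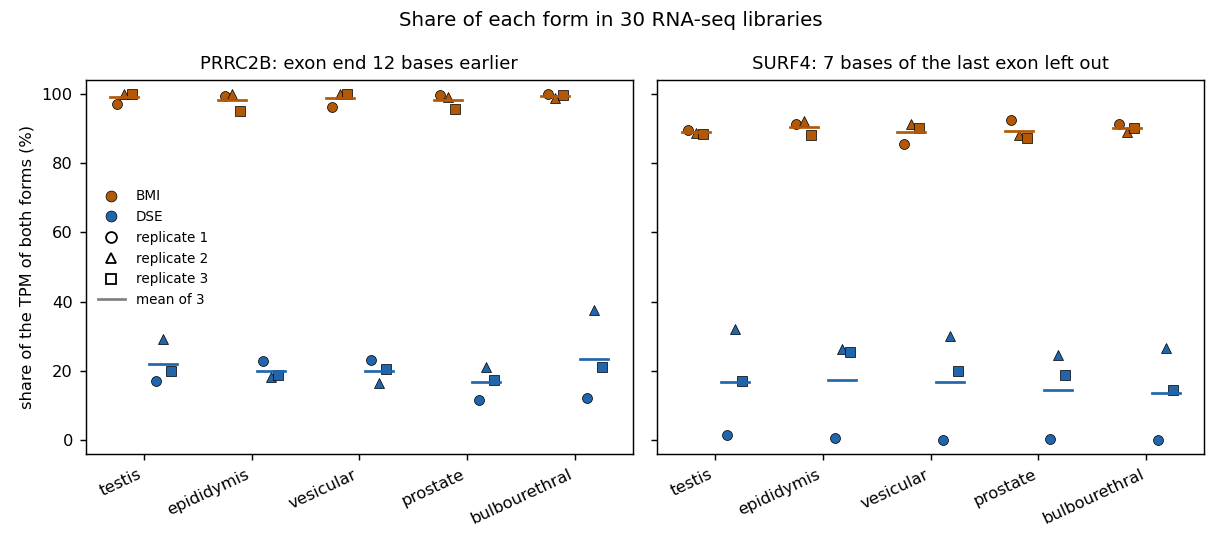
Share of the TPM of both forms (%) taken by PRRC2B transcripts with the exon end 12 bases earlier (left) and by SURF4 transcripts without 7 bases of the last exon (right), by gland, in 30 RNA-seq libraries. Each symbol is 1 library, the symbol shape gives its replicate number, colours give BMI and DSE, and short lines are means of 3. BMI libraries lie at 85.4% or above and DSE libraries at 37.4% or below in all 5 glands, and SURF4 in DSE replicate 1 lies at 0% to 1.40%.

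SURF4 was also split by breed in RNA-seq, with the gapped form prevailing in BMI. The form without the 7 bases took 85.4% to 92.4% of the TPM of both forms in the 15 BMI libraries (median 89.5%; mean 89.5% ± 1.97, SD) and 0% to 32.0% in the 15 DSE libraries (median 18.9%; mean 15.9% ± 12.1, SD). The wide DSE range followed the replicate numbers. DSE replicate 1 was at 0% to 1.40% in all 5 glands, replicate 2 at 24.6% to 32.0% and replicate 3 at 14.4% to 25.4%, so that the 3 numbers did not overlap except between 24.6% and 25.4%. Transcripts that show either form held 32.0% to 100% of the gene's TPM in BMI and 27.5% to 100% in DSE, and over all transcripts that span the position the gapped form took 77.5% in BMI and 10.6% in DSE. Without DSE replicate 1 the difference (DSE minus BMI) was -65.98 percentage points, against -73.7 over all libraries.

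In TPM, PB.2185.1, which keeps the 7 bases, stood in testis at 8.92, 8.58 and 16.0 in BMI and at 96.9, 92.8 and 85.0 in DSE. In bulbourethral gland the same transcript gave 12.5, 17.8 and 19.9 TPM in BMI and 174, 138 and 148 TPM in DSE. PB.2185.12, which lacks them, gave 157, 160 and 206 TPM in BMI and 0.392, 51.2 and 25.6 TPM in DSE bulbourethral gland. Both transcripts kept the breeds apart in all 5 glands. The summed TPM of SURF4 overlapped between breeds in every gland, for example 265, 259 and 240 TPM in BMI and 197, 501 and 300 TPM in DSE testis, so no difference in the gene total was seen beyond the spread between libraries.

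The full-length reads of SURF4 went the other way. In BMI, none of 169 reads in testis, 248 in epididymis and 160 in vesicular gland lacked the 7 bases, which allows shares of up to 1.78%, 1.21% and 1.88% (3 reads of the total), and 1 of 324 did in bulbourethral gland. In DSE, 34 of 140 reads in testis, 23 of 69 in epididymis, 66 of 307 in the vesicular, 17 of 135 in the prostate and 45 of 133 in the bulbourethral gland lacked them. The Iso-seq library labelled BMI prostate gland, which held vesicular gland markers, gave 61 of 193 reads (31.6%), inside the DSE range of 12.6% to 33.8%. Over all libraries the share was 185 of 784 reads (23.6%, Wilson 95% interval 20.8% to 26.7%) in DSE and 62 of 1094 (5.67%, 4.45% to 7.20%) in BMI, and without the library labelled BMI prostate gland 1 of 901 (0.111%, 0.0196% to 0.626%) in BMI. With 1 library per breed and gland these intervals cover counting error only. The RNA-seq and Iso-seq shares overlapped in DSE and did not in BMI; the cause was not tested. Iso-seq reads that tell the PRRC2B forms apart numbered 7 in BMI and 2 in DSE, of which 4 and 1 had the short form, and without the library labelled BMI prostate gland 4 of 6 in BMI had it, too few to compare.

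**Figure D2:**
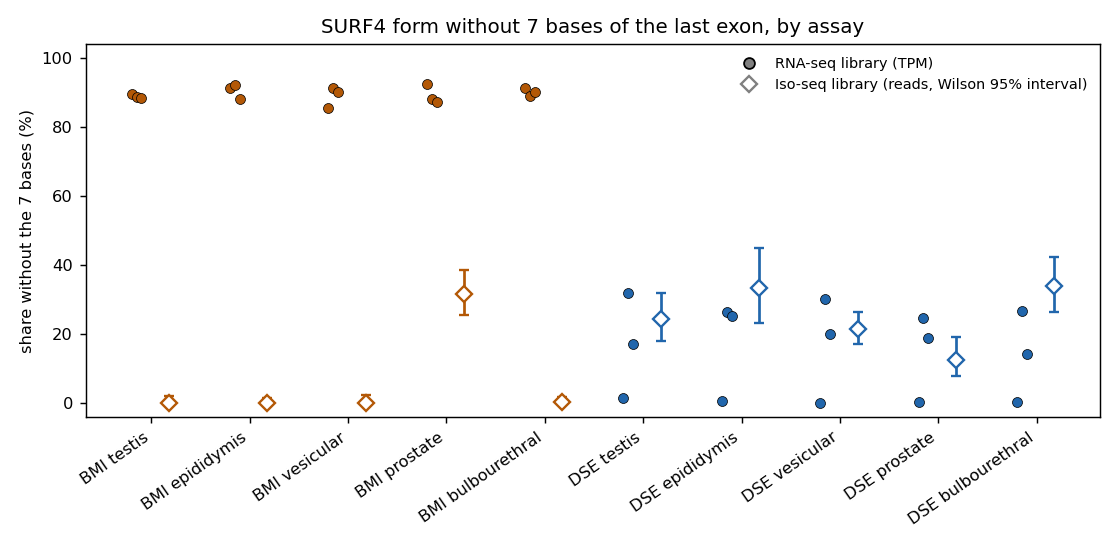
Share of SURF4 without 7 bases of the last exon (%) in each breed and gland, from TPM in 3 RNA-seq libraries (filled circles) and from reads in 1 Iso-seq library (open diamonds with Wilson 95% intervals). In BMI the RNA-seq shares lie at 85.4% or above and the Iso-seq shares at 0% to 0.309% except in the library labelled BMI prostate gland (31.6%), while in DSE both lie between 0% and 33.8%.

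To see whether Iso-seq and RNA-seq libraries carried the same breed labels, 91 Iso-seq transcripts outside the segment that kept the breeds apart in all 5 glands in RNA-seq were compared where at least 5 reads were present. The reads went in the direction of the TPM for 10 of 10 in testis, 13 of 13 in epididymis, 13 of 13 in vesicular gland and 13 of 17 in bulbourethral gland, but for 5 of 12 in prostate gland, where 6 went the opposite way.

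Over all splice junctions, 5 of 1038 in the segment had shares that did not overlap between breeds in the same direction in all 5 glands, all of them in PRRC2B and SURF4. Across the genome 198 of 146563 junctions (0.135%) did so. Besides the exon ends above, PRRC2B had 2 minor junctions of this kind, at 0.0684% in BMI and 4.40% in DSE, and at 0.0615% in BMI and 2.99% in DSE. Among transcripts, 5 of 349 in the segment kept the breeds apart in the same direction in all 5 glands, where 0.186% of all transcripts did, and 7 of 349 in at least 4 glands, where 0.493% did. These shares belong to the values that picked the segment, and nothing is read from them. The transcripts apart in all 5 glands were PB.2174.143 and ENSSSCT00000006285 of PRRC2B, PB.2185.1 and PB.2185.12 of SURF4, and ENSSSCT00000062833 of AIF1L, an actin-binding protein. The AIF1L transcript was weak, with a median of 0.771 TPM in the 15 BMI libraries and 0.0559 TPM in the 15 DSE libraries. ENSSSCT00000006218 of DYNC2I2 and PB.2174.147 of PRRC2B were apart in 4 glands, the first lower and the second higher in DSE.

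FIBCD1 (chr1:270918246-270956765) had the largest breed difference in gene total in the segment on the log2(TPM + 1) scale, and it was seen in a single gland. In vesicular gland its summed level was 0.774, 1.20 and 1.49 TPM in BMI and 41.9, 44.7 and 39.8 TPM in DSE, 36.5 times higher in DSE by the means (1.15 ± 0.359 and 42.2 ± 2.48, SD, n = 3 each). All 24 libraries of the other glands were below 1 TPM, the highest of the prostate libraries being BMI replicate 2, at 0.945 TPM, which held vesicular gland products. On the log2(TPM + 1) scale, with a pseudocount of 1, the vesicular gland difference was 4.34 (SE 0.287), and it lay between 4.203 and 4.45 when any 1 library was left out. Full-length reads of FIBCD1 were found in the DSE vesicular gland (14) and in the Iso-seq library labelled BMI prostate gland (32). The BMI vesicular gland held 0 of 293781 reads, which allows up to 3.

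SH3GLB2 (chr1:269312825-269332344) was lower in DSE in the accessory glands and not in testis or epididymis. In vesicular gland the summed level was 141, 145 and 122 TPM in BMI and 69.5, 73.3 and 62.7 TPM in DSE, and in prostate gland 86.5, 94.6 and 108 TPM in BMI and 49.96, 52.2 and 57.95 TPM in DSE. In bulbourethral gland the libraries were also apart, with means of 57.3 ± 7.60 in BMI and 46.1 ± 1.85 TPM in DSE (SD, n = 3). They were apart there by little, the lowest BMI library being at 48.6 and the highest DSE library at 48.2 TPM. In testis the order was turned, with 16.9, 12.1 and 13.03 TPM in BMI and 17.4, 29.3 and 17.9 TPM in DSE, and in epididymis the breeds overlapped. Of all genes, 22.9% were apart in either direction in testis, 5.36% in epididymis, 22.9% in vesicular, 31.5% in prostate and 9.63% in bulbourethral gland. In vesicular gland, the transcript PB.2157.10 was at 53.8, 21.0 and 36.0 TPM in BMI and 0, 0 and 2.13 TPM in DSE. Full-length reads of the gene in vesicular gland numbered 114 in BMI, 3 of them of PB.2157.10, and 1 in DSE.

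**Figure D3:**
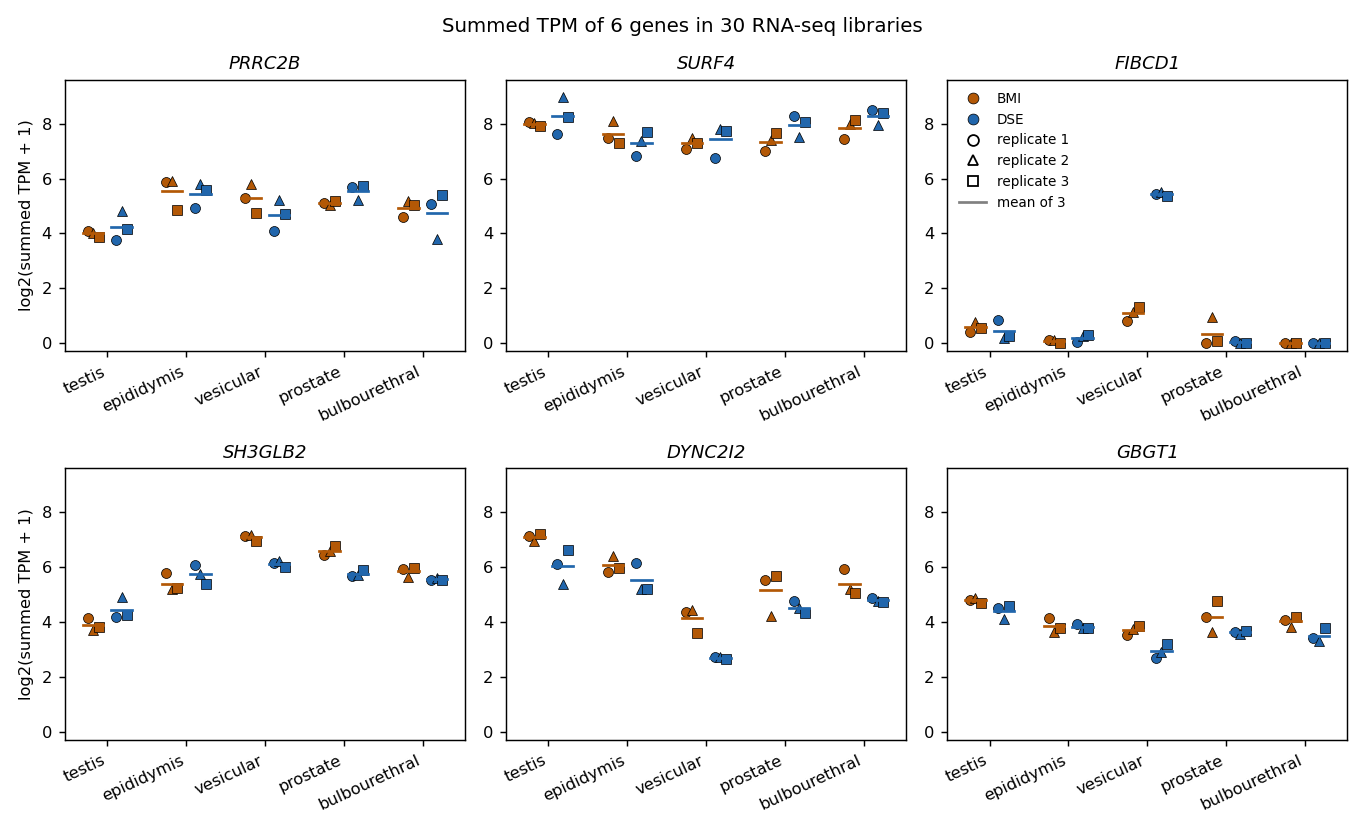
Summed TPM of 6 genes, as log2(TPM + 1), by gland in 30 RNA-seq libraries; each symbol is 1 library, shapes give replicate numbers, colours give BMI and DSE, and short lines are means of 3. PRRC2B overlaps between breeds in 4 glands and SURF4 in all 5, FIBCD1 is at 39.8 TPM or above in DSE vesicular gland alone, and DYNC2I2 and GBGT1 are lower in DSE in 3 glands each.

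DYNC2I2, an intermediate chain of the dynein that moves cargo back along cilia, was lower in DSE in testis, vesicular gland and bulbourethral gland. In vesicular gland it stood at 19.8, 20.8 and 11.08 TPM in BMI and 5.57, 5.69 and 5.32 TPM in DSE, a log2 difference of -1.43 (SE 0.311), beside a median of -0.42 over all genes in that gland. It was -0.94 after scaling by size factors, below the threshold of a call. In testis the values were 139, 122 and 146 TPM in BMI and 69.2, 40.6 and 98.2 TPM in DSE. GBGT1, a glycosyltransferase that makes the Forssman glycolipid, was lower in DSE in testis, vesicular gland and bulbourethral gland, for example 10.4, 12.6 and 13.5 TPM in BMI and 5.43, 6.59 and 8.23 TPM in DSE vesicular gland. Counting the glands in which the breeds were apart one way less those apart the other way, these were the 2 of 85 member genes with a net of at least 3 glands, where 2.23% of all genes had one. SH3GLB2, apart in 3 glands one way and in testis the other, had a net of 2. No member gene had a net of at least 4, where 0.546% of all genes did.

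CRAT, the carnitine acetyltransferase that buffers acetyl groups in mitochondria, was called in 3 of its transcripts in vesicular gland, while its total overlapped between breeds there. In vesicular gland ENSSSCT00000006234 stood at 6.59, 14.1 and 10.9 TPM in BMI and was listed at 0 in DSE, PB.2158.19 stood at 11.3, 12.6 and 6.63 TPM in BMI and was also listed at 0 in DSE, and PB.2158.1 was listed at 0 in BMI and stood at 6.07, 7.97 and 5.41 TPM in DSE. The vesicular Iso-seq libraries did not show this split, with 3 reads of PB.2158.1 in BMI and 5 in DSE and 0 of PB.2158.19 in both. The gene total in the same libraries was 52.5, 54.8 and 42.9 TPM in BMI and 50.1, 47.3 and 41.1 TPM in DSE. In testis PB.2158.19 was apart in the same direction, at 52.8, 50.8 and 31.3 TPM in BMI and 14.5, 0 and 6.14 TPM in DSE, as was PB.2158.1, at 24.9, 29.9 and 36.0 TPM in BMI and 39.3, 39.2 and 78.5 TPM in DSE. ENSSSCT00000006234 overlapped between breeds in testis, at 22.3, 45.4 and 20.3 TPM in BMI and 14.6, 29.8 and 38.1 TPM in DSE. In BMI prostate gland PB.2158.1 varied from library to library, at 16.5, 0 and 18.01 TPM. The 0 was in replicate 2, the library that held vesicular gland products. BMI replicate 2 was also at 0 in epididymis (21.3, 0 and 11.9 TPM) and in bulbourethral gland (6.36, 0 and 7.32 TPM).

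ENSSSCG00000035964, which has no symbol in the deposited annotation, lies at chr1:272886925-272890537, where RefSeq places OBP2B, of the lipocalin family of small carrier proteins. That name begins with none of the excluded ones. It was found in vesicular gland, at 0.257, 0 and 0 TPM in BMI and 5.86, 5.13 and 14.4 TPM in DSE, and at no more than 0.132 TPM in any library of another gland. No full-length read of it was found. The Iso-seq gene novelGene_408, at chr1:272848827-272854823 on the minus strand, was found in testis at 0, 0 and 0.394 TPM in BMI and 45.5, 5.60 and 11.8 TPM in DSE, with 2 full-length reads, both in DSE testis. SPOUT1, a methyltransferase-like protein of the spindle, was lower in DSE testis (23.1, 14.97 and 14.6 TPM) than in BMI testis (34.8, 40.8 and 34.6 TPM). It was higher in DSE prostate and bulbourethral glands, by libraries that did not overlap. Libraries were apart in either direction for 22.9% of all genes in testis, 31.5% in prostate and 9.63% in bulbourethral gland. NTNG2, a netrin anchored to the membrane, was weak throughout and highest in DSE epididymis, at 2.81, 2.91 and 1.34 TPM against 0.666, 0.473 and 0.178 TPM in BMI.

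**Figure D4:**
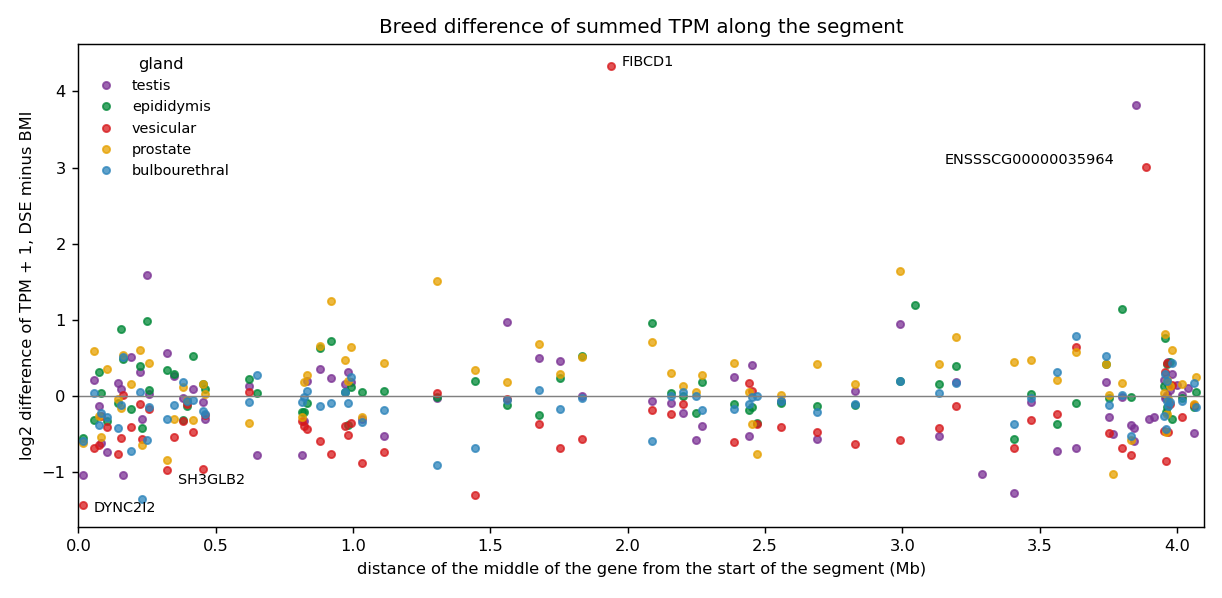
Log2 difference of summed TPM + 1 between breeds (DSE minus BMI) for the member genes that reached 1 TPM in at least 3 of the 6 libraries of a gland, against the distance of the middle of the gene from the start of the segment (Mb); each point is 1 gene in 1 gland, coloured by gland. Most points lie between -1 and 1 along the whole segment, and FIBCD1 (4.34) and ENSSSCG00000035964 (3.003) in vesicular gland and novelGene_408 (3.82) in testis stand far above 0.

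The median log2 difference of member genes between breeds was -0.03 in testis and 0.03 in epididymis, beside -0.10 and -0.0008 over all genes tested there. In the vesicular, prostate and bulbourethral glands it was -0.41, 0.18 and -0.08, beside -0.42, 0.39 and -0.02 over all genes. The median gene was thus lower in DSE vesicular and higher in DSE prostate gland. Without BMI prostate gland replicate 2 the prostate medians were 0.05 for members and 0.36 for all genes. With all glands fitted together, the member differences ran from -0.85 (DYNC2I2, SE 0.159) to 0.80 with a median of -0.05, beside -0.03 for all genes. None of the 85 was called over all glands, where 0.344% of all genes were, a call being an adjusted p below 0.05 in limma and a log2 difference of at least 1. By the adjusted p alone 2 of the 85 passed, DYNC2I2 and GBGT1 (-0.46, SE 0.109), where 1.44% of all genes did.

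Calls in single glands came mostly from transcripts. By limma on the 6 libraries of a gland, 2 of 224 member transcripts were called in testis and 0 of 188 in epididymis, where 0.698% and 0% of all transcripts were called. The vesicular gland had 7 of 144, the prostate gland 4 of 181 and the bulbourethral gland 2 of 178, where 0.191%, 0.42% and 0.103% of all transcripts were called. The 15 calls were 10 transcripts of 6 genes, 7 calls higher and 8 lower in DSE. Beyond those given above they included ENSSSCT00000045824 of SURF4, listed at 0 in all 3 BMI and at 40.9, 36.4 and 31.6 TPM in DSE prostate gland, and PB.2178.6 of GBGT1, at 6.18, 4.34 and 8.63 TPM in BMI and 0 in DSE prostate gland. None of the 15 calls held in each of the 6 fits that left out 1 library. A transcript at 0 in 1 breed cannot pass the filter without a library of the other breed, and 2 calls, PB.2174.143 in testis and ENSSSCT00000045824 in prostate gland, held in every fit that tested them. The size changed less than the calls, as for PB.2185.1 in bulbourethral gland, whose log2 difference was 2.95 to 3.27 in these fits against 3.14. With all libraries and the replicate number added to the fit, none of the 15 was called. In prostate gland without BMI replicate 2, 5 of 167 member transcripts tested were called, among 393 calls of 27136 transcripts. These 5 were higher in DSE, but PB.2174.143 and PB.2178.6, at 0 in DSE, could not pass the filter with 2 BMI libraries. For gene totals, 0 of 77 members were called in testis and 0 of 73 in epididymis, where 0.619% and 0% of all genes were. The vesicular gland had 3 calls of 67 (FIBCD1, ENSSSCG00000035964 and DYNC2I2), the prostate gland 0 of 71 and the bulbourethral gland 0 of 72, where 1.22%, 0.343% and 0.0219% of all genes were called. ENSSSCG00000035964 and FIBCD1 would not have passed the filter there without the DSE libraries, where they were high. In prostate gland without BMI replicate 2, 3 of 69 members were called, NCS1 higher (2.06) and DYNC2I2 (-1.09) and PRRT1B (-1.14) lower in DSE, among 934 calls of 13226 genes tested. A breed difference that itself differed between glands (limma F test of the interaction, adjusted p below 0.05) was called for 6 of 85 members, where 2.94% of all genes were; it draws on the contrast that picked the segment, and 4 of the 6 (FIBCD1, ENSSSCG00000035964, novelGene_408 and NTNG2) would not have passed the filter without the 3 DSE libraries of 1 gland, although FIBCD1 also reached 1 TPM in 2 BMI libraries there.

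The segment was set beside windows of the same length, 4.1 Mb, tiled along every chromosome, of which 105 held at least 50 tested genes. Over the 5 glands 1.64% of the transcript tests in the segment were called by breed, the second highest of the 105 windows, whose median was 0.220% and whose highest value was 4.95%. For gene totals the segment, with 0.833% of tests called, stood at place 19. It held 5 transcripts apart in all 5 glands, second to a window with 6 and level with 1 other window, while 70 windows held none. The window just before it on chromosome 1 held 1 such transcript among 317 tested. Since the segment was chosen on these values, its place is a description with no test.

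**Figure D5:**
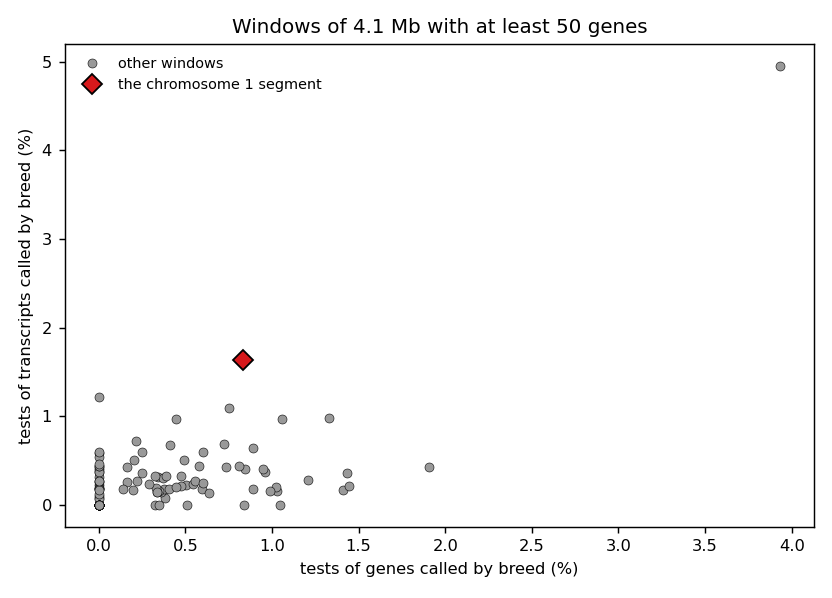
Share of transcript tests (vertical axis, %) and of gene tests (horizontal axis, %) called by breed over the 5 glands in 105 windows of 4.1 Mb with at least 50 tested genes; each point is 1 window. The chromosome 1 segment (red diamond) lies at 1.64% of transcript tests and 0.833% of gene tests, second highest for transcripts and place 19 for genes.

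DYNC2I2 begins at 269002253, just inside the start of the segment, and had a log2 difference over all glands of -0.85 (SE 0.159). GLE1, which straddles the start, was at -0.25 (SE 0.150). SLC2A6, just inside the end, was at -0.10 (SE 0.107), and ADAMTSL2, just outside it at 273119904, was at 0.40 (SE 0.206).

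The difference between glands was not used to choose the segment and was tested in all members. By limma on the 30 libraries, each gland was compared with the mean of the other 4, with adjusted p below 0.05 and a log2 difference of at least 1. Testis was the gland in which most members were higher, 28 of 85, where 34.6% of all genes were higher. The epididymis had 9 such members, the vesicular gland 4, the prostate gland 4 and the bulbourethral gland 2, where 15.1%, 2.95%, 3.69% and 8.45% of all genes were higher. Of these, 7 of the 28 in testis and 2 of the 4 in vesicular gland passed the filter through that gland alone, so they had to be higher there, and these counts support nothing for them. Members lower than in the other glands numbered 11 in testis, 3 in epididymis, 26 in the vesicular, 5 in the prostate and 9 in the bulbourethral gland, where 12.8%, 6.56%, 30.1%, 12.8% and 12% of all genes were lower. These counts depended on the scaling. With size factors 25 members were higher and 11 lower in testis, 6 and 6 in epididymis, 6 and 8 in the vesicular, 6 and 4 in the prostate and 0 and 10 in the bulbourethral gland. In both directions together this was 42.4%, 14.1%, 16.5%, 11.8% and 11.8% of members, beside 47%, 17.7%, 19.3%, 15.8% and 19.7% of all genes.

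The testis genes with the largest differences were not expressed at such levels in any other gland. ENSSSCG00000061305, at the place where RefSeq has C1H9orf50, stood at 208 to 848 TPM in the 6 testis libraries (median 809) and at most 22.6 TPM elsewhere, a log2 difference of 6.91 (SE 0.192, limma adjusted p = 1.85e-23). SPACA9, a protein of sperm microtubules, stood at 79.8 to 323 TPM in testis and at most 13.2 TPM elsewhere (log2 difference 6.04, SE 0.263, limma adjusted p = 7.98e-19). FAM78A stood at 17.4 to 103 TPM in testis and at most 2.52 TPM elsewhere (log2 difference 4.98, SE 0.228, limma adjusted p = 2.83e-18). For all 3 genes the lowest testis library was DSE replicate 2. Their full-length reads also came from testis, with 52 and 62 reads of ENSSSCG00000061305, 20 and 30 of SPACA9 and 119 and 170 of FAM78A in BMI and DSE testis, and at most 2 in any other library.

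In vesicular gland FIBCD1 (log2 difference 3.05), ENSSSCG00000046947 (2.46), ENSSSCG00000035964 (1.60) and SH3GLB2 (1.19) were higher than in the other glands, and their 6 vesicular libraries did not all lie above the 24 others for any of them. With size factors the 4 differences were 3.67, 3.29, 2.07 and 2.04. FIBCD1 and ENSSSCG00000035964 were high in the DSE vesicular libraries alone and would not have passed the filter without them, so for these the difference is a description. In bulbourethral gland TOR1A, an ATPase of the endoplasmic reticulum, stood at 35.4 to 47.5 TPM and at most 35.3 TPM elsewhere (log2 difference 1.18, SE 0.143, limma adjusted p = 7.58e-08), and RALGDS, an exchange factor for Ral, was also higher (1.10); with size factors these were 0.96 and 0.91, below the threshold of a call. KYAT1, an aminotransferase of the kynurenine pathway, was the member highest in prostate gland over the others (2.30).

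By role, counts of lower genes are to be read beside the 12.8% of all genes lower in testis and 30.1% lower in vesicular gland. Of the 5 genes of cilia and sperm, BARHL1 did not pass the filter, and CFAP77 and STKLD1 passed it through testis alone, so nothing is read from their difference between glands. SPACA9 and AK8 were higher in testis, where 34.6% of all genes were. Of the 15 signalling and cytoskeleton genes 6 were higher and 2 lower in testis, and 8 were lower in vesicular gland, 2 with size factors; the most abundant was PTPA, an activator of protein phosphatase 2A, at a mean of 109 TPM. Of 16 nuclear and RNA genes that passed the filter, out of 18, 5 were higher and 2 lower in testis and 5 lower in vesicular gland, 0 with size factors; NTMT1, a protein N-terminal methyltransferase, led with a mean of 51.7 TPM. Of the 8 secretory path genes, led by SURF4 at 225 TPM, 1 was higher (POMT1) and 2 lower (TOR1A and SH3GLB2) in testis. Of the 9 genes of the surfeit cluster and its neighbours 1 was higher and 1 lower in testis; RPL7A, a protein of the large ribosomal subunit, had the highest mean TPM of the 85 members, 828. Of the 5 genes listed as mitochondrial, led by CRAT at 97.5 TPM, 2 were higher and 1 lower in testis; NTMT1 and IER5L on that list are not mitochondrial proteins, and NTMT1 is also on the nuclear list. Of the 6 matrix and secreted genes, none passed the test in testis. FIBCD1 was higher in vesicular gland, where 2.95% of all genes were, but passed the filter through it alone, so nothing is read from this. On this list 1 gene was lower in vesicular gland, 1 higher in epididymis and 2 lower in bulbourethral gland. Of all genes these were 30.1%, 15.1% and 12%. That list was led by UCK1, at 40.3 TPM, which is a nucleoside kinase and not a secreted protein. By breed over all glands the median log2 differences of the lists lay between -0.09 and 0.28, beside -0.03 for all genes.

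The Iso-seq libraries were not used to choose the segment, and the breeds were compared in their full-length reads with edgeR's quasi-likelihood test over the 5 glands. With 1 library per breed and gland, the 5 glands of a breed stood in as replicates, and they may share boars. The test looks for a difference shared by the glands, so a difference in a single gland was not tested. In all, 75 member genes had 13890 full-length reads, and 24 of them had enough reads to be tested. None of the 24 was called, where 0% of the 5099 genes tested were called. None of the 24 members had an unadjusted p below 0.05 in this test, where 177 of the 5099 genes did, and DESeq2 called 10 genes, none of them a member. Without the library labelled BMI prostate gland, 0 of 29 members tested were called by edgeR, where 10 of 5634 genes were. SH3GLB2 had 114, 36 and 65 reads in the BMI libraries labelled vesicular, prostate and bulbourethral gland and 1, 24 and 20 in those of DSE, and 13 and 64 in BMI and 15 and 65 in DSE testis and epididymis. Per 100000 full-length reads of the library these were 38.8, 13.7 and 16.7 in BMI and 0.314, 7.14 and 7.54 in DSE for the accessory glands, 2.86 and 3.28 for testis, and 13.95 and 28.1 for epididymis.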

How the data were processed

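RNA was measured by RNA-seq (30 libraries, 3 per breed and gland) and Iso-seq (10 libraries). Per the paper's methods, Iso-seq reads were clustered over all samples, aligned to Sscrofa11.1 and collapsed, the resulting transcripts were merged with Ensembl transcripts, and RNA-seq reads were quantified on this annotation with Salmon (1.9.0 in the submitters' processing notes, which also name STAR 2.7.10a, GSNAP and Bowtie 1.3.1). The labels state rRNA depletion for RNA-seq, while the methods state poly-A selection. The authors deposited TPM per transcript and full-length read counts per Iso-seq transcript. Because Salmon estimates how reads divide among transcripts, TPM of near-identical forms depends on which forms the annotation holds.

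Gene totals are TPM summed over transcripts, with a pseudocount of 1 before log2 and a filter of 1 TPM in at least 3 libraries of a fit. Breeds were compared with limma 3.58.1 in each gland and over glands, glands with limma, and full-length reads with edgeR 4.0.16 (DESeq2 1.42.0 as an alternative), with Benjamini-Hochberg adjustment over all features, two-sided, in R 4.3.3. A site share is the TPM of transcripts with a junction over that of all transcripts of either form. Alternatives were a pseudocount of 0.1, no filter, size factors, a block on replicate numbers, leaving out libraries, and shifted windows. The fits were tested on simulated data. Genes named are those the segment was chosen by, members apart in at least 4 glands, members called, the 3 most gland-typical members whose libraries all lay above the others, the leading member of each list, genes at the ends, and others with the largest difference in a gland, which like CRAT, SPOUT1, NTNG2, novelGene_408, GBGT1, KYAT1, RALGDS, NCS1, PRRT1B and ENSSSCG00000046947 were named after their values were seen. Members, lists and tests were chosen with earlier results of these data known. Small RNA libraries were not used here, since no miRNA precursor was placed in the segment.

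In the main fits replicate numbers were not taken to pair breeds or glands, and the labels do not say what a number shares. Same-numbered libraries of the breeds had correlated deviations of -0.555 to 0.374 within glands. Same-numbered libraries of a breed exceeded 0.1 in 21 of 60 pairs of glands. SURF4 shares followed the number in DSE, so n = 15 counts libraries, not boars.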

Additional observations from a re-analysis of the deposited data

Results flagged for a closer look

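For 6 member genes the breed difference differed between glands by limma's F test of the interaction over the 30 RNA-seq libraries. The adjusted p was 1.08e-10 for FIBCD1, 5.60e-08 for ENSSSCG00000035964, 1.79e-05 for novelGene_408, 0.00292 for SH3GLB2, 0.00611 for NTNG2 and 0.00658 for SPOUT1. The segment was chosen on breed differences in single glands, so these values are not independent evidence. FIBCD1, ENSSSCG00000035964, novelGene_408 and NTNG2 would not have passed the filter without the DSE libraries of the 1 gland in which they were high, so their p-values support nothing. FIBCD1 and ENSSSCG00000035964 were higher in all 3 DSE than in all 3 BMI libraries of the vesicular gland, and novelGene_408 in those of testis. SH3GLB2 was lower in DSE in the 3 accessory glands and higher in DSE testis. Its nearest libraries were at 48.6 (BMI) and 48.2 TPM (DSE) in bulbourethral gland, and at 16.9 (BMI) and 17.4 TPM (DSE) in testis. Without BMI prostate gland replicate 2 all 6 stayed below 0.05, from 1.17e-11 for FIBCD1 to 0.00917 for NTNG2.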

How the results depend on the processing

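The count of member transcripts called by breed, 15 over the 5 glands, depended on the fit. It was 11 with a pseudocount of 0.1, 17 with size factors, 7 with no filter and 1 to 5 when 1 replicate number of 1 breed was left out (1 without DSE replicate 3, 2 without DSE replicates 1 or 2, 3, 5 and 4 without BMI replicates 3, 2 and 1). Of 90 such fits of single calls, 27 did not test the transcript, since a transcript seen in 1 breed needs all 3 of its libraries to pass the filter, 49 lost the call and 14 kept it. No difference changed sign. Member gene calls, 3 in all, were 1 with no filter and 1 to 5 with a library left out: 1 without DSE replicates 1 or 3, and 5 without DSE replicate 2 or BMI replicate 2. DYNC2I2 kept its call without DSE replicate 2 and lost it without each other library of the vesicular gland and with no filter, a pseudocount of 0.1 or size factors, ENSSSCG00000035964 lost it with no filter and fell below the filter, so was not tested, without any DSE library, and FIBCD1 kept it in all 6 fits.

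Within a gland the replicate block added the number as a term, which pairs same-numbered libraries of the breeds. Over all glands it instead let libraries of the same breed and number be correlated. With the replicate block the member counts in single glands were 0 transcripts and 5 genes. In the whole table the block gave 41 transcript calls in place of 471 and 936 gene calls in place of 304. Across glands, same-numbered libraries of a breed had correlated deviations above 0.1 in 21 of 60 pairs, and other numbers in 18 of 120, and 3 of 15 libraries correlated best with their own number in the other breed. For members the block changed no call over all glands, between glands or in the interaction, while over all genes these were 66 in place of 68 over all glands and 626 in place of 582 in the interaction.

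Over all glands 0 members were called under every alternative run. Members higher in a gland, 47 in all, numbered 43 to 55, and TOR1A and RALGDS in bulbourethral gland lost their calls with size factors. The place of the segment among windows by transcript calls stayed at 2 with shifted windows and with genes that had a called transcript counted in place of transcript tests. Full-length reads gave 0 member calls in all alternatives. The comparison of miRNAs was not run. The TPM table holds no read counts, so values near 0 have no counting error here.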
